A study of Zea mays with 24 samples.

Results

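The cytoline cytTC221 is a maize line in which the nucleus of the inbred line TC243 was brought by backcrossing into the cytoplasm of the line TC221, so that its mitochondria and chloroplasts come from TC221. Its heat response was taken as the contrast of its 4 heat arrays with its 4 control arrays, 8 of the 24 arrays of the series, across all 48264 genes measured. The other 16 arrays belong to TC243, the nucleus donor, and to cytT248, which carries the same nucleus in the cytoplasm of T248 (some labels write cytTC248), with 4 control and 4 heat arrays each. Leaves and stems of seedlings at the 3-leaf stage were sampled at an age of 21 days. Control seedlings had been kept at 26 °C in the 16 h light period and 20 °C in the dark, and heat seedlings had spent the last 24 h at 40 °C in the same light regime. The labels name no transgene or chemical in any group. The methods name 3 seedlings per line, and neither they nor the labels say which seedlings went into which array, so the p-values measure the spread between these arrays, which may be partly technical.

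At high temperature plant proteins unfold, and heat shock transcription factors switch on chaperones. Small heat shock proteins hold unfolded proteins in a soluble state, and HSP70, HSP90, HSP60 and HSP101 refold or disaggregate them. Maize is a C4 plant, in which mesophyll cells fix carbon first with PEP carboxylase and bundle sheath cells fix it again with Rubisco. In the mitochondrion, alternative oxidase carries electrons past some of the proton-pumping complexes of the respiratory chain. Most proteins of both organelles are encoded by nuclear genes, while a few are encoded by the organelles' own DNA.

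The arrays gave one fluorescence value per probe and sample. Values of a gene are given as normalized signal, the background-corrected fluorescence after the arrays were scaled to each other, in arbitrary units that can be compared between arrays but not between genes. Fold regulation (FR) is the ratio of the heat to the control signal, with a minus sign for a decrease. Log2 changes are given ± SE with n = 4 arrays in each group, and a gene was called at an adjusted p below 0.01 in the limma fit of all 24 arrays. Between 39.3% and 42.7% of the spots of a control array and between 36.9% and 43.1% of those of a heat array of cytTC221 were well above background. Replicates of cytTC221 correlated at 0.988 to 0.995 across genes, with a median SD per gene of 0.11 in the control and 0.15 in the heat group on the log2 scale. All control arrays of cytTC221 lay in odd and all heat arrays in even positions of their slides, so position and treatment cannot be told apart within this cytoline.

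In cytTC221, 19579 genes (40.6%) were up-regulated and 15587 (32.3%) down-regulated. The median change of all genes was 0.12 on the log2 scale in this scaling and -0.019 with quantile normalization. Of the called genes, 16492 up-regulated and 15272 down-regulated ones were also called in the same direction under each of 5 other scalings or signals. Under 3 of these, quantile normalization, the scanner's processed signal and the deposited value table, down-regulated genes outnumbered up-regulated ones, while under the others up-regulated genes were the more numerous. An absolute FR over 2 was reached by 9289 up-regulated and 7909 down-regulated genes, over 10 by 1321 and 572, and over 50 by 140 and 31. The heat and control arrays did not overlap in 35171 of the 48264 genes. On the 2 slides that held both a control and a heat array of cytTC221, 34897 of the 35166 called genes moved on both slides in the direction of the fit. These arrays also entered the fit that made the calls, so this count is no independent check. Nor does it separate position on the slide from treatment. Background set a further limit. Of the called genes, 3522 up-regulated genes were not well above it on any control array, and 2166 down-regulated genes on no heat array. For these only a lower bound of the fold is given ("at least"), set from the dimmest signals called bright. It can equal the plain ratio and is not a guaranteed minimum. Genes with a probe well above background on any of those arrays get a plain FR, even at similarly dim signals.

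The leaf markers were measured, with 3 of 3 for mesophyll (pep1, pdk1 and mdh6) and 4 of 4 for bundle sheath (me3, ssu1, rbcS and rca1) kept after the filter on dim probes. Of 35 endosperm and embryo markers 2 were kept, of 4 pollen markers 0 and of 4 root markers 2. A bulk seedling sample cannot show whether a lower signal comes from fewer cells of a type or from less RNA per cell.

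The small heat shock proteins stood at the top of the response. All 6 measured members were up-regulated, beside 40.6% of all genes, with a median log2 change of 7.70 against 0.12 over all genes. The transcript of hsp26, a chloroplast small heat shock protein, had a normalized signal of 63.7, 59.4, 71.5 and 88.8 on the control arrays and 50353, 47606, 45425 and 56014 on the heat arrays. It was at background on every control array and far above it on every heat array. The transcript was at least 710.1-fold higher, a bound that here is the plain ratio (limma adjusted p = 2.07e-23). A small heat shock protein gene named only by its ID here, GRMZM2G158232, read 52.9, 70.3, 61.1 and 66.3 in control and 28641, 13819, 26488 and 30661 in heat. Heat array 2 was the lowest of the heat arrays, and still the transcript was at least 358-fold higher. For hsp18c the signals were 76.3, 67.9, 83.9 and 92.4 against 19757, 22544, 21899.8 and 19909, an FR of 264. The transcript of hsp22, a mitochondrial member, was above background without stress already, at 354, 502, 503 and 387, and reached 72005, 73538, 73806 and 65546 (FR 165, log2 change 7.37 ± 0.15). The remaining members, hsp18f and hsp18a, were at least 11.1 and 8.86 times higher, and the signal of hsp18f under heat stayed between 657 and 755.

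The large chaperones moved the same way. All 13 measured members, of 14 on the list, were up-regulated, beside 40.6% of all genes, with a median log2 change of 3.78. The disaggregase gene hsp101 read 69.6, 65.2, 71.8 and 78.3 in control and 8324, 7387, 9099 and 8329.5 in heat, at least 116-fold higher. The HSP90 genes hsp82, HSP90-1 and HSP90-2 all rose, and hsp82 went from 55.3, 60.7, 62.1 and 61.7 to 5214, 5553, 3257 and 5207. Its heat array 3 lay apart below the others, and the increase was at least 73.2-fold. HSP90-1 was expressed without stress, at 717, 709, 710.3 and 742, and reached 22213, 20289, 20782 and 18268 under heat (FR 28.3). The chaperone gene Hsp70 went from 70.2, 74.9, 80.9 and 77.7 to 3886, 4501, 3306 and 4087 (FR 51.7, log2 change 5.69 ± 0.09). The mitochondrial chaperonin HSP60 is represented by 3 array IDs, of which GRMZM2G111477 and GRMZM2G458208 share the name CPN60I and may share signal. Their FR was 24.1 and 14.3, and that of CPN60II was 12.3. At the low end stood Fes1B, a nucleotide exchange factor of HSP70, with a log2 change of 0.43 ± 0.11, and the chloroplast co-chaperonin CHL-CPN10 with 0.49 ± 0.07.

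**Figure D1:**
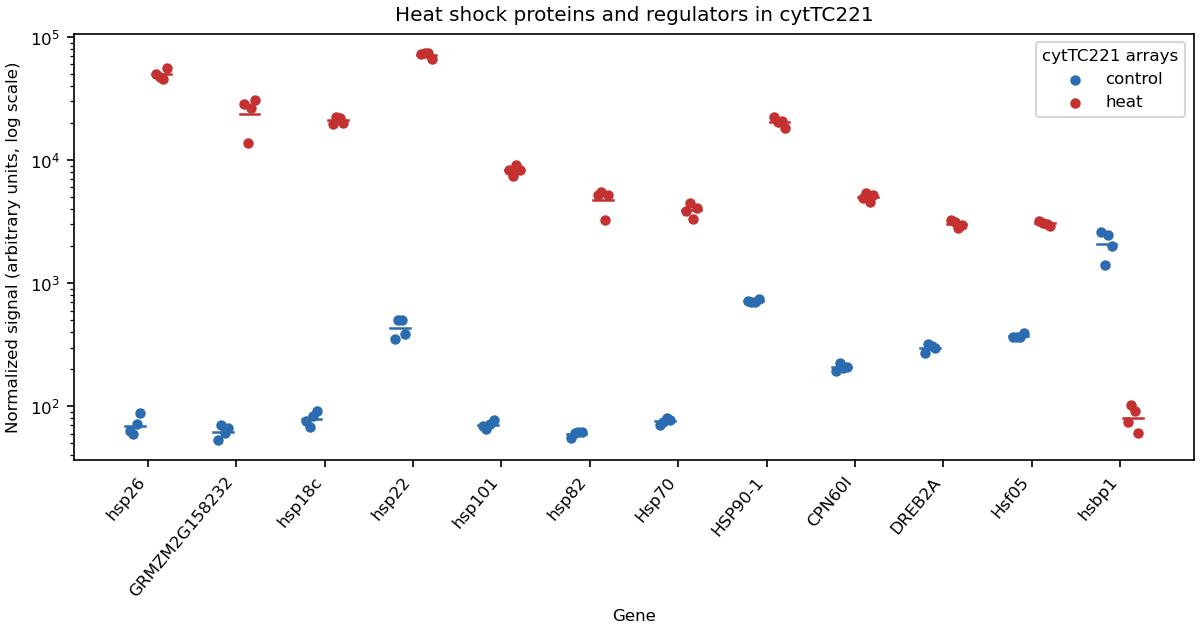
Normalized signal (arbitrary units, log scale) of 12 chaperone and regulator genes on the 4 control (blue) and 4 heat (red) arrays of cytTC221. Points are arrays and lines are geometric means. Control arrays of hsp26, GRMZM2G158232, hsp101 and hsp82 lie at background below 100 units, and those of hsp18c and Hsp70 lie below 100 units too. The gene hsbp1 is the one shown that is lower under heat.

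Among heat shock factors and their regulators the response was mixed, with 9 of 16 measured members up-regulated, 4 down-regulated and 3 not called (median log2 change 0.30). The shares up and down were 56.25% and 25.0%, beside 40.6% and 32.3% of all genes. DREB2A, a transcription factor that in Arabidopsis acts upstream of a heat shock factor, rose from 273, 319, 310.2 and 298 to 3234, 3120.0, 2819 and 2975 (FR 10.1). The factor Hsf05, under the ID GRMZM2G133023, rose from 364, 367, 368 and 395 to 3199, 3100.2, 3003 and 2939.8 (FR 8.20), while the second ID with that name, GRMZM2G132971, was not called. The transcriptional coactivator gene MBF1.2 had an FR of 8.08. The gene ERTC, one of the 10 largest measured increases of named genes, went from 99.0, 109, 109 and 107 to 18413, 15559, 16276 and 21596 (FR 168). The other direction was led by hsbp1, also named SBP1, whose signal fell from 2597, 1412, 2483 and 2007 to 74.4, 102, 91.2 and 60.8, at least 25.7-fold lower. Its heat arrays were all at background. Small decreases were called for emp2, a negative regulator of the heat shock response in maize, with a log2 change of -0.22 ± 0.07, and for Hsf12, with -0.29 ± 0.09, with overlapping groups in both. Without a filter on dim probes the log2 change of emp2 turned to 0.095. The count of 4 down-regulated members fell to 2 when control array 2, 3 or 4 or heat array 4 was left out. MBF1.3 fell by 0.40 ± 0.09 on the log2 scale.

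In the endoplasmic reticulum, where secreted proteins are folded, 13 of 21 measured folding and degradation genes were up-regulated and 5 down-regulated. The shares up and down, 61.9% and 23.8%, stand beside 40.6% and 32.3% of all genes. The down-regulated genes became 3 without control array 4, without heat array 4 and with the processed signal. The derlin genes, which take part in exporting misfolded proteins, all rose. DER1.2 went from 207, 169.9, 192 and 193 to 2029, 2257, 2439 and 2283 (FR 11.8), and derlin1 had an FR of 5.31. The chaperones bip1 and bip2 rose less, by 0.81 ± 0.10 and 0.84 ± 0.06 on the log2 scale, and calreticulin crt2 by 1.98 ± 0.10 on the log2 scale. The protein disulfide isomerases did not move together. PDIL2-3 rose by 2.69 ± 0.08 on the log2 scale, whereas PDIL5-1 was at least 1.27 times lower, and PDIL1-1 had a log2 change of -0.97 ± 0.26 that one of the 5 other scalings did not call. The names PDIL1-4 and PDIL5-3 each stand for a pair of array IDs that moved in opposite directions, so no value is given for them.

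Of 13 measured antioxidant enzymes 10 were up-regulated and 3 down-regulated (76.9% and 23.1%, beside 40.6% and 32.3% of all genes). The ascorbate peroxidase gene apx2 rose from 313, 316, 321 and 313 to 2579, 2162, 2728 and 2487 (FR 7.86). The superoxide dismutase gene sod2 rose by 2.05 ± 0.10 on the log2 scale and the dehydroascorbate reductase gene dhar2 by 2.02 ± 0.06 on the log2 scale. Catalase cat2 went the other way, from 6786, 6017, 7124 and 5929.6 to 419.7, 511, 526 and 399 (FR -14.0), and so did dhar4 (log2 change -0.95 ± 0.08) and sod3 (log2 change -0.87 ± 0.08). Of 19 measured glutathione S-transferases, which join glutathione to reactive or foreign compounds, 7 were up, 8 down and 4 not called. The shares up and down, 36.8% and 42.1%, stand beside 40.6% and 32.3% of all genes. The spread in this family was wide. The largest increases were those of gst5 (FR 18.6) and gst42 (FR 18.0), and the largest decrease that of gst30, from 5780.0, 4566, 4237 and 4762 to 315, 364, 382 and 303 (FR -14.2).

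Nuclear genes for mitochondrial proteins rose in 10 and fell in 1 of 13 measured cases (median log2 change 1.15). The shares up and down were 76.9% and 7.69%, beside 40.6% and 32.3% of all genes. The alternative oxidase gene aox2 read 198, 238, 231 and 195 in control and 6809.6, 7916, 8041 and 6645 in heat (FR 34.1, log2 change 5.09 ± 0.09). Control and heat arrays were far apart, and aox3 changed by nearly the same factor, from 168, 148, 144 and 179.96 to 4544, 6021, 5835 and 5243 (FR 33.8). Of the prohibitins, scaffold proteins of the inner membrane, phb2 rose from 156, 148, 150.2 and 163 to 2657, 3376, 3424 and 3115 (FR 20.3), and phb1 and phb3 by 1.96 ± 0.12 and 1.73 ± 0.08 on the log2 scale. The voltage-dependent anion channels, pores of the outer membrane, differed among themselves. The log2 change was 1.35 ± 0.06 in vdac2 and 0.96 ± 0.14 in vdac1a, and vdac1b fell from 3151, 3153, 2944 and 3148 to 561, 483, 558 and 602 (FR -5.64). Of the genes encoded in the mitochondrion, 10 could be named on the array and 9 were measured. Of these, 8 were up-regulated and none down-regulated (median log2 change 1.09). The share up was 88.9%, beside 40.6% of all genes. The largest change was that of mt-nad5, for a subunit of respiratory complex I, from 90.9, 109, 111 and 106 to 510.1, 496, 478 and 504 (FR 4.78). The ribosomal protein gene mt-rps12 rose by 1.38 ± 0.18 on the log2 scale, and the assembly factor gene mt-ccmfn was not called. The labelling kit starts from total RNA, and how it primes transcripts of the organelle is not given in the sources used here, so these signals are not set against those of nuclear genes.

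In the translation machinery, 21 of 33 measured ribosomal protein genes rose and 7 fell (median log2 change 0.74). The shares up and down were 63.6% and 21.2%, beside 40.6% and 32.3% of all genes. Ribosomal proteins come in families of near-identical copies, so a probe may read several of them. The gene rpl19 (GRMZM2G171444) went from 96.8, 91.6, 95.1 and 113 to 2303, 1826, 2245 and 2406 (FR 22.1), and the acidic stalk protein genes rpp2a-2 and rpp2a-4 had an FR of 8.85 and 6.47. Against these, one copy of RPS27A (GRMZM2G431821) fell by 2.95 ± 0.06 on the log2 scale. Translation factors moved both ways, 6 up and 4 down of 10. The cap-binding factor eIF4E1 rose from 137, 129.6, 127 and 124 to 6572, 5984, 6453 and 7225 (FR 50.5), and tif1, the start codon factor eIF1, from 1488, 1805, 1831 and 1664 to 48415, 46540.5, 78221 and 43249 (FR 31.1). Both were among the 10 largest measured increases of named genes. The elongation factor gene elfa7 had an FR of -3.35, and eif5a one of -1.72.

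The SR proteins, which bind pre-mRNA and help to choose splice sites, were 7 up and 9 down of 19 (36.8% and 47.4%, beside 40.6% and 32.3% of all genes). Up-regulated genes became 4 with the brightest probe of each gene. Among them srp30, SR45_2 and SCL25B had nearly equal increases, with an FR of 9.50, 9.43 and 9.36. SCL30, under the ID GRMZM2G065066, had a log2 change of -2.15 ± 0.13 and RS2Z35 one of -1.58 ± 0.06. For srp31, RSZ21 and SCL25A the probes of the gene disagreed in sign, and their direction reversed with the brightest probe alone. Pentatricopeptide repeat proteins, which process transcripts in the organelles, rose in 5 and fell in 2 of 7 cases (median log2 change 1.29). The shares up and down of these proteins were 71.4% and 28.6%, beside 40.6% and 32.3% of all genes. PPR-817 led them with a log2 change of 2.62 ± 0.13.

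Photosynthesis genes formed the other end of the response. Of 24 measured genes of light harvesting, the photosystems and ferredoxin, 16 were down-regulated and 3 up-regulated, with a median log2 change of -1.41. The shares down and up, 66.7% and 12.5%, stand beside 32.3% and 40.6% of all genes. The antenna protein gene lhcb6, for the minor complex CP24, fell from 155974, 147388, 137677 and 153547 to 653, 819, 805.3 and 688 (FR -201, log2 change -7.65 ± 0.10). This was the largest decrease among named genes well above background on all 8 arrays. Another antenna gene, cab-m1, went from 3852, 4537, 4339 and 4518 to 184, 225, 205 and 178 (FR -21.8). The members lhcb4 and lhcb5 had an FR of -11.5 and -2.57, and lhcb7 was at least 16.8-fold lower. The photoprotective subunit gene psbs1 and the ferredoxin-NADP reductase gene fnr1 fell, with log2 changes of -2.88 ± 0.14 and -2.64 ± 0.09. The up-regulated genes were the ferredoxin gene fdx3 (FR 9.51), the photosystem I subunit gene psah1 (FR 1.69) and one ID of PGR5 (GRMZM2G017045, FR 8.08), while the other ID of that name (GRMZM2G121494) fell (FR -5.65). The transcription factor glk1, also called G2-like1, which in maize acts in mesophyll chloroplast development, went from 10696, 9527, 9384 and 9659 to 70.0, 80.8, 83.8 and 62.5. It was at background on every heat array and at least 128-fold lower.

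Of 14 measured genes of the C4 cycle 5 were up-regulated and 5 down-regulated (35.7% each), shares near the 40.6% and 32.3% of all genes (median log2 change -0.014). PEP carboxylase, pep1, fell from 54317, 56025, 50428 and 47364 to 503, 492, 497 and 454 (FR -107, log2 change -6.74 ± 0.13). PPCK1, a kinase that activates PEP carboxylase, fell by 3.75 ± 0.09 on the log2 scale, and the dicarboxylate transporter genes pDCT2 and pDCT1 had log2 changes of -2.45 ± 0.15 and -2.12 ± 0.10. Pyruvate orthophosphate dikinase, pdk1, fell less, from 34512, 41263, 42542 and 35185 to 20534, 19469, 22376 and 18860.2 (FR -1.89). Other genes of the cycle rose. NADP-malate dehydrogenase, mdh6, went from 283, 324, 355 and 313 to 1719, 1192, 1527 and 1539 (FR 4.66), and NADP-malic enzyme, me3, which releases CO2 in the bundle sheath, from 379, 392, 358 and 368 to 1374, 1207, 1239 and 1339 (FR 3.44).

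Rubisco and its helpers were split by gene copy, with 2 of 6 measured genes up-regulated and 4 down-regulated. The shares up and down were 33.3% and 66.7%, beside 40.6% and 32.3% of all genes. The small subunit gene rbcS fell from 31872, 32328, 30758 and 27584 to 1944, 980.4, 1617 and 1665 (FR -20.3), and ssu1, the other small subunit gene measured, rose from 263, 294, 284 and 272 to 469.6, 400.2, 387 and 410.1 (FR 1.49). The same held for Rubisco activase, the chaperone that keeps Rubisco active. The rca1 transcript went from 48874, 57044, 67665 and 64907 to 1233, 1064, 1194 and 1141 (FR -51.2), and rca3 from 187, 133, 176 and 164 to 1059.6, 689, 686 and 906 (FR 5.01). In both pairs the copy with the falling signal and the copy with the rising signal had no overlap between control and heat arrays. The same held for 35171 of all 48264 genes. Cross-hybridization between the copies was not tested.

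**Figure D2:**
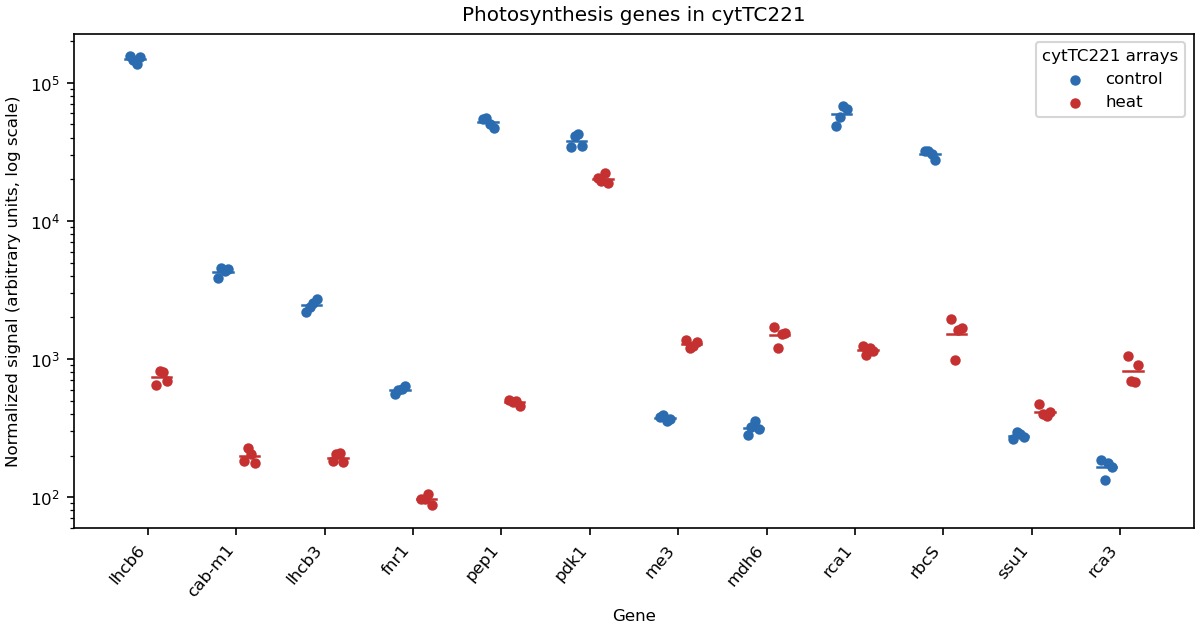
Normalized signal (arbitrary units, log scale) of 12 photosynthesis genes on the 4 control (blue) and 4 heat (red) arrays of cytTC221. Points are arrays and lines are geometric means. The antenna genes, pep1, rca1 and rbcS are lower under heat on every array, while me3, mdh6, ssu1 and rca3 are higher.

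Pigment pathways were less uniform. Of 9 chlorophyll genes, 7 rose and 1 fell, or 3 with the brightest probe of each gene. The shares up and down were 77.8% and 11.1%, beside 40.6% and 32.3% of all genes. Both array IDs of the stay-green gene SGR1, whose product takes part in chlorophyll breakdown, rose alike (FR 7.61 and 7.65), and lls1, for the oxygenase that opens the ring of a breakdown product, rose by 1.42 ± 0.08 on the log2 scale. The protochlorophyllide reductase gene pcr1, which acts in synthesis, fell from 1768, 1245, 1761 and 1906 to 109, 132, 149.7 and 109 (FR -13.3). Among carotenoid genes 5 rose and 5 fell of 12 (41.7% each, beside 40.6% and 32.3% of all genes). Phytoene synthase, the entry enzyme, fell in both copies measured, psy2 from 3672, 3698, 3204 and 3406 to 77.8, 83.4, 99.0 and 73.4 (FR -42.1) and PSY1 with a log2 change of -2.37 ± 0.08. The isomerase gene CRTISO1 rose by 1.19 ± 0.07 on the log2 scale. Flavonoid genes were 4 up and 3 down of 8, led downward by PAL1 (log2 change -2.95 ± 0.18), the first enzyme of the phenylpropanoid pathway, and by the chalcone synthase gene c2 (log2 change -1.82 ± 0.07).

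Genes of sucrose metabolism were down-regulated in 7 of 12 cases and up-regulated in 3 (58.3% and 25.0%, beside 32.3% and 40.6% of all genes). Both enzymes of sucrose synthesis fell, sucrose phosphate synthase sps1 from 12226, 20335, 20261 and 19296 to 2157, 2285, 2295 and 1983 (FR -8.11) and the phosphatase spp1 with an FR of -5.003. The vacuolar invertase gene ivr2 was at least 5.49 times lower, and the sucrose synthase gene sh1 rose by 1.12 ± 0.06 on the log2 scale. In starch metabolism 5 genes fell and 3 rose of 11 (45.5% and 27.3%, beside 32.3% and 40.6% of all genes), with iso3, a debranching enzyme, at a log2 change of -2.74 ± 0.07 and bt2, a subunit of ADP-glucose pyrophosphorylase, at 0.99 ± 0.08. In nitrogen assimilation 8 of 15 genes fell, 3 rose and 4 were not called. The shares down and up were 53.3% and 20.0%, beside 32.3% and 40.6% of all genes. Nitrate reductase NR1 went from 4118, 1212, 4463 and 4942 to 70.6, 74.3, 92.2 and 67.3 and was at least 41.0-fold lower. Control array 2 was far below the other control arrays for this gene, and none of the control arrays overlapped with heat. Nitrite reductase, NIR, fell with an FR of -10.1, and both IDs of the nitrate transporter Nrt1.1 with log2 changes of -1.99 ± 0.09 and -1.95 ± 0.08.

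Among the 10 largest measured decreases of named genes were BX4, bx6 and glu2. BX4, a cytochrome P450 of the synthesis of benzoxazinoids, defence compounds of young maize plants, fell from 8030.2, 7249.9, 6505 and 7736 to 157, 200.2, 172 and 166 (FR -42.5), and bx6, a dioxygenase of the same synthesis, from 34046, 26199.9, 26106 and 31011 to 746, 1001, 1001 and 847 (FR -32.7). The glucosidase gene glu2 fell from 15512, 17771, 16959 and 14783 to 494, 465, 464 and 489 (FR -33.9). Benzoxazinoid genes were not on a list, so nothing is said of the pathway. An actin gene, also named Maz83, was in the same top 10 and fell from 13796, 12117, 12947 and 13282 to 494, 469.8, 535 and 488 (FR -26.2), as was MYBR100, a MYB-related factor (FR -25.3).

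**Figure D3:**
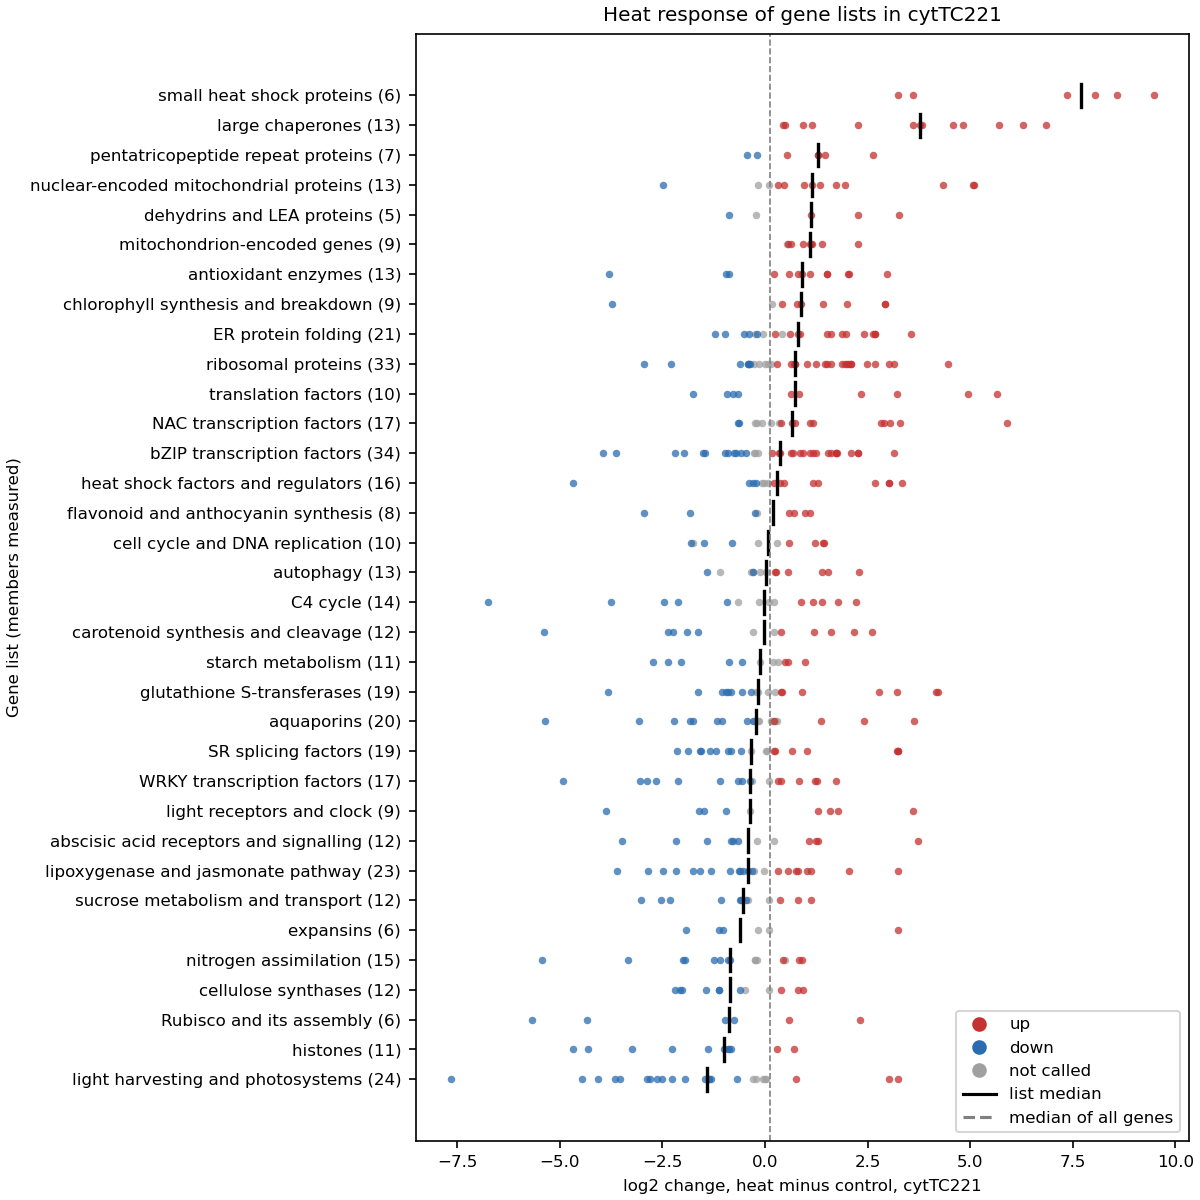
Log2 change of the measured members of 34 gene lists in cytTC221 (heat minus control, 1 point a gene, coloured by call), with the list median as a black bar and the median of all genes, 0.12, as a dashed line. Small heat shock proteins and large chaperones lie wholly to the right, light harvesting has the lowest median, and most other lists hold genes that moved in both directions.

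Transcription factor families moved in both directions. Of 17 NAC genes 10 rose and 2 fell, or 4 with quantile normalization, the processed signal or the deposited table. The shares up and down were 58.8% and 11.8%, beside 40.6% and 32.3% of all genes. SNAC1, which is named for its response to stress in rice, rose from 131, 139, 135 and 141 to 7526, 7277, 8693 and 9472 (FR 60.03), and NAC12 was at least 9.29-fold higher. Of 34 bZIP genes 19 rose (55.9%, beside 40.6% of all genes), with bZIP84 at FR 8.87 and bZIP68 at FR 4.85, and 12 fell (35.3%, beside 32.3%), with bZIP61 at FR -12.4 and bZIP50 at least 15.5-fold lower. With only probes well above background on all 24 arrays, 26 bZIP genes were tested and 6 fell. Of 17 WRKY genes 9 fell (52.9%, beside 32.3% of all genes) and 6 rose (35.3%, beside 40.6%). WRKY111 fell from 5892, 5125, 5119.7 and 5346 to 169.7, 195, 181 and 159 (FR -30.5), while WRKY30 rose by 1.72 ± 0.10 on the log2 scale. In light signalling 4 genes rose and 4 fell of 9 (44.4% each, beside 40.6% and 32.3% of all genes). Both copies of the clock gene gigantea rose, gigz1a with an FR of 3.44 and gigz1b at least 11.9-fold, and PIF5, a factor that binds phytochrome in Arabidopsis, fell from 4999.6, 3681, 4698 and 5108 to 316, 328, 328 and 289 (FR -14.6).

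Abscisic acid, the hormone of water shortage, acts through PYL receptors and SnRK2 kinases. Of 12 genes 4 rose and 6 fell. The called receptor genes, PYL11, PYL7 and PYL10, all fell, with log2 changes of -1.41 ± 0.08, -0.77 ± 0.10 and -0.65 ± 0.06. The kinases were split between SnRK2.2, which rose from 135, 125, 135 and 139 to 1679, 1868, 1793 and 1768 (FR 13.3), and SnRK2.5, which fell from 26713, 23293, 22447 and 23103 to 1851, 2358, 2339 and 1963 (FR -11.3). Among dehydrins and LEA proteins, which protect cells in dry tissue, 3 of 5 measured rose, with RAB15 at FR 9.57 and dhn2 at FR 4.78, and dehydrin7 fell by 0.88 ± 0.07 on the log2 scale. Decreases numbered 1, and 2 with quantile normalization, the processed signal or the deposited table. The aquaporins, channels for water and small solutes, fell in 9 and rose in 4 of 20 cases. Their shares down and up were 45.0% and 20.0%, beside 32.3% and 40.6% of all genes. The plasma membrane channels PIP1-1 and PIP2-4 fell, with log2 changes of -1.83 ± 0.07 and -1.75 ± 0.10. NIP2-3, whose rice counterpart Lsi6 carries silicon, went from 3189.9, 4291, 3462 and 3180.1 to 88.3, 87.7, 93.9 and 74.1 and was at least 40.7-fold lower. The tonoplast channel TIP2-1 rose from 591, 238, 712 and 617 to 6335, 5396, 6993 and 5925 (FR 12.3), with control array 2 well below the others.

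Histone genes fell in 9 of 11 cases and rose in 2 (median log2 change -0.99). The shares down and up were 81.8% and 18.2%, beside 32.3% and 40.6% of all genes. The linker histone genes his1 and hon102 had an FR of -25.5 and -20.0. On the control arrays his1 read 2580.1, 2401, 2399 and 2417, of which array 1 stood apart, and on the heat arrays 90.3, 103, 110.5 and 82.7. Cell cycle and replication genes were measured in 10 of 23 cases, 4 up and 3 down (40.0% and 30.0%, beside 40.6% and 32.3% of all genes). The origin recognition gene orc4 fell by 1.80 ± 0.09 on the log2 scale, and cyclin4 and cycD2 rose by 1.41 ± 0.09 and 1.22 ± 0.18 on the log2 scale. Cellulose synthases, which make the cell wall's main fibre, fell in 7 and rose in 3 of 12 genes. Their shares down and up were 58.3% and 25.0%, beside 32.3% and 40.6% of all genes. The genes cesa5 and cesa7 had an FR of -4.17 and -4.06. Both array IDs of CesA-9 rose, by 0.81 ± 0.10 and 0.92 ± 0.09 on the log2 scale. Of 6 measured expansins, proteins that loosen the wall, 3 fell, all at background under heat, and 1 rose, expA4 from 265, 216, 235 and 218 to 2149.8, 2275, 2308 and 2144 (FR 9.54).

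Jasmonate is a wound and defence hormone made from fatty acids by lipoxygenase (lox), allene oxide synthase (aos), allene oxide cyclase (aoc) and reductase (opr) enzymes. Of 23 genes 13 fell and 8 rose (56.5% and 34.8%, beside 32.3% and 40.6% of all genes). Of the 10 genes named lox 7 went down, 1 rose and 2 were not called. The lox genes were taken by name and not sorted by whether they act in jasmonate synthesis. The decreases were led by lox6, from 767, 848, 787 and 862 to 113, 122, 130.0 and 92.7 (FR -7.19), lox4 at FR -5.58 and lox10 at FR -4.49. The reductases that act in jasmonate synthesis in maize, opr7 and opr8, fell as well, with log2 changes of -1.75 ± 0.08 and -3.61 ± 0.14. Other reductases rose, opr2 from dim control signals of 61.2, 72.0, 75.2 and 72.5 to 648, 652, 677 and 696 (FR 9.55) and opr6 by 2.06 ± 0.08 on the log2 scale. In autophagy, by which cells break down their own contents, 6 genes rose, 2 fell and 5 were not called of 13. The shares up and down were 46.2% and 15.4%, beside 40.6% and 32.3% of all genes. With the brightest probe of each gene 3 rose and 5 fell. The largest increases with probes of one sign were those of atg5 (FR 4.94) and atg6 (FR 2.63), and Atg8c fell by 1.41 ± 0.07 on the log2 scale. The nucleoredoxin gene nrx1, one of the 5 largest increases from background, was at least 16.7-fold higher, and Natterin-4, one of the 5 largest decreases to background, at least 22.5-fold lower. The cysteine protease gene ccp1 went from 101, 103, 99.9 and 105 to 5882, 5979, 6608 and 4989 (FR 57.1).

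Whether cytTC221 responded unlike the other cytolines was tested as the difference of its log2 change from that of TC243 and from that of cytT248. Both differences use the same cytTC221 arrays and are not independent. Both were past the threshold upward for 2121 genes (4.39%) and downward for 7635 (15.8%). This split depends on the scaling of the arrays. Higher responses were 21.7% of these genes in the main scaling, 43.9% with quantile normalization, 52.8% with the 75th percentile over all spots, 62.3% with arrays centred on the median gene, 32.3% with the processed signal and 44.3% with the deposited table. The median gene moved by 0.12 in cytTC221, 0.27 in TC243 and 0.48 in cytT248. Under all of these settings 1840 genes were called higher and 3838 lower. The genes named in the following were called the same way in all of them unless stated otherwise.

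**Figure D4:**
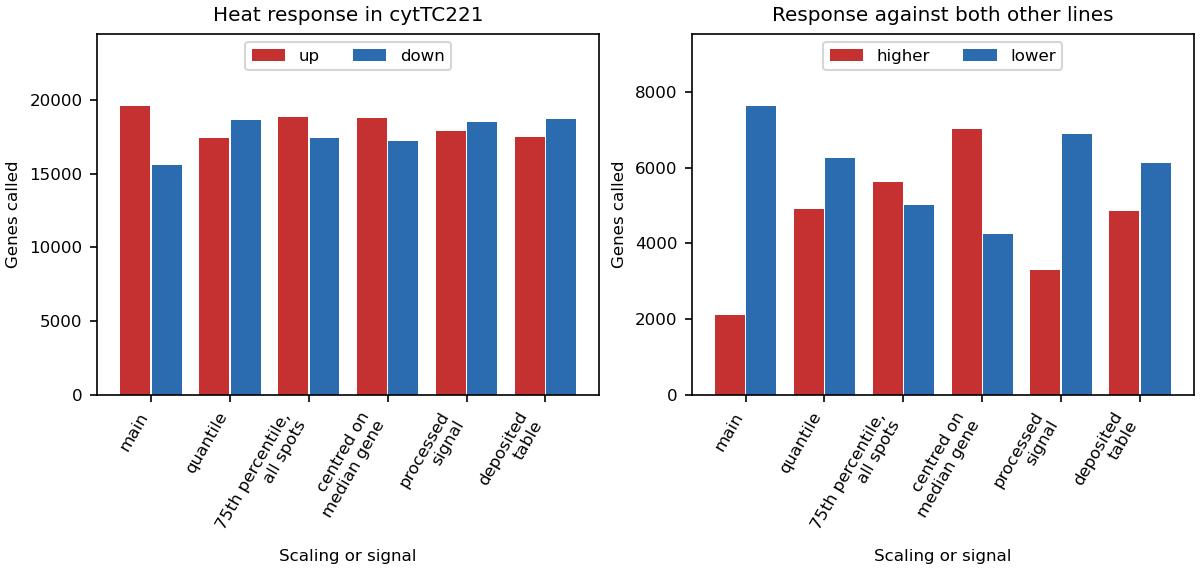
Number of genes called under 6 scalings or signals. The left panel shows genes up (red) and down (blue) in cytTC221, and the right panel genes with a higher (red) or lower (blue) response in cytTC221 than in both TC243 and cytT248. In the right panel lower responses outnumber higher ones, 7635 against 2121, in the main scaling, and the order turns for the 75th percentile over all spots and for median centring.

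Some nuclear genes for mitochondrial proteins were among those with a larger increase in cytTC221. The log2 change of aox2 was 5.09 in cytTC221 against 4.33 in TC243 and 4.32 in cytT248, a difference of 0.76 ± 0.13 (limma adjusted p = 5.33e-05) and 0.78 ± 0.13 (limma adjusted p = 5.15e-05). For phb2 the log2 changes were 4.34, 3.61 and 3.65. In vdac2 they were 1.35, 0.69 and 1.03. Of the 13 nuclear genes for mitochondrial proteins 5 were called higher than in both other cytolines and 0 lower, beside 4.39% and 15.8% of all genes. The gene aox3 was not among the 5, as its change in TC243, 4.999, was close to its 5.08 in cytTC221. The lists were chosen with earlier results of these data known, so such counts are descriptive. Of 6 genes of Rubisco and its helpers 2 were called higher and 2 lower, and under all scalings 2 higher and 0 lower. Of the 9 mitochondrion-encoded genes none was called higher, and 2, mt-atp4 and mt-rps7, were called lower in the main scaling but not under all scalings. Among ribosomal protein genes 7 were called higher and 2 lower, and under all scalings 6 higher and 2 lower. One of them, rpp1a, rose by 0.64 ± 0.08 on the log2 scale in cytTC221, with -0.06 in TC243 and -0.36 in cytT248.

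The named genes with the largest higher response were GNAT21, pho1, Hm2, INO1, vip3 and PPCK4. GNAT21, of a family of acetyltransferases, rose from 128, 113, 122 and 128 to 742, 859, 893 and 759.8 in cytTC221. The group means were 117 and 137 in TC243 and 110.2 and 156 in cytT248 for control and heat. The response thus exceeded that of TC243 by 2.49 ± 0.15 on the log2 scale and that of cytT248 by 2.23 ± 0.15 on the log2 scale. PPCK4, a PEP carboxylase kinase, rose from 760.3, 667, 850.2 and 609.7 to 1778, 1930.4, 2053 and 1742 in cytTC221, with a log2 change of 1.39 against -1.15 in TC243 and 0.25 in cytT248. It fell in TC243 and rose in cytTC221. The starch phosphorylase gene pho1 rose by 1.96 ± 0.08 on the log2 scale against 0.60 and 0.63 in TC243 and cytT248. Hm2, a reductase gene related to resistance against a fungal toxin, rose by 1.46 ± 0.12 on the log2 scale against 0.23 and -0.17. For INO1, an enzyme of inositol synthesis, and vip3 (an ID listed under more than 1 RefSeq entry) a higher response means a smaller decrease. Their log2 changes were -1.99 and -2.05 in cytTC221, -3.15 and -3.39 in TC243 and -3.50 and -3.21 in cytT248. PSY1 behaved likewise, with -2.37 against -3.49 and -3.55.

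The named genes with the largest lower response were mir2, TIP3-1, ICL, CPK39, psiP and HRGP. The cysteine protease gene mir2 rose in all cytolines, from 289.6, 271, 281 and 316 to 2919, 1713, 3521 and 3042 in cytTC221, by 3.23 on the log2 scale there against 5.42 in TC243 and 5.11 in cytT248. Its control means were 289 in cytTC221, 549.8 in TC243 and 679.7 in cytT248, and its heat means 2705, 23608 and 23439. Both its control and its heat mean were lower in cytTC221 than in the other cytolines, the heat mean by the larger factor. The tonoplast channel gene TIP3-1 had a log2 change of -3.07 ± 0.11 in cytTC221, -1.39 in TC243 and -1.01 in cytT248. Isocitrate lyase, ICL, of the glyoxylate cycle, fell from 445, 549, 522 and 515 to 184, 235, 239 and 195 in cytTC221 (log2 change -1.26), against 0.34 in TC243 and 1.17 in cytT248. CPK39, a calcium-dependent protein kinase gene, had a log2 change of -0.84 against 0.60 and 0.54. The gene HRGP, of a hydroxyproline-rich wall protein, went from 611, 508, 516 and 683 to 444, 425, 442 and 413 in cytTC221, a small decrease of FR -1.34. In TC243 it rose from a mean of 198 to 794 and in cytT248 from 319 to 551. For psiP the log2 change was 0.34, 1.67 and 1.97 in the same order.

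**Figure D5:**
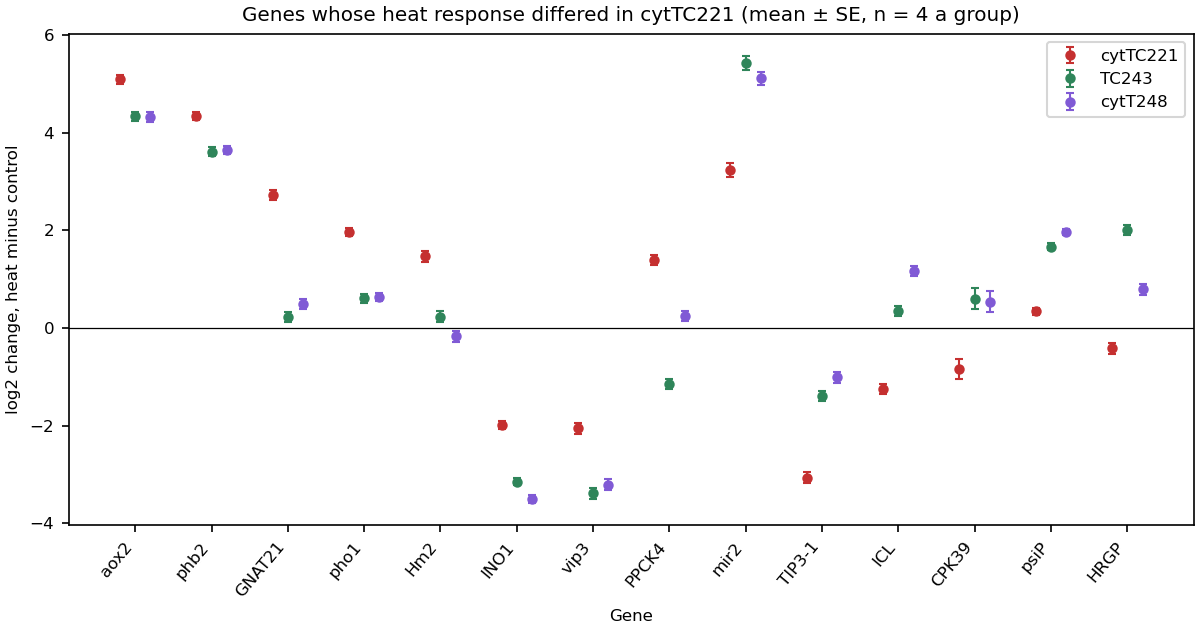
Log2 change of 14 genes (heat minus control, mean ± SE of the shared fit, n = 4 arrays a group) in cytTC221 (red), TC243 (green) and cytT248 (purple). The first 8 genes, aox2 to PPCK4, lie higher in cytTC221 than in both other cytolines, and the other 6, mir2 to HRGP, lie lower.

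Within the lists, other members stood apart in cytTC221 under all scalings. The dehydroascorbate reductase gene dhar4 had a log2 change of -0.95 ± 0.08, with 0.10 in TC243 and 0.34 in cytT248. The factor Hsf26 rose by 1.304 ± 0.10 on the log2 scale, less than the 2.65 of TC243 and the 2.497 of cytT248, and cyclin4 by 1.41 against 3.64 and 2.93. The LEA gene mlg3 was at least 2.07-fold higher in cytTC221, and its log2 change of 1.12, which starts from background, stood beside 2.93 and 2.32. The co-chaperonin gene CHL-CPN10 and the uroporphyrinogen decarboxylase gene les22, of the porphyrin pathway, were higher, at 0.49 and 2.01 in cytTC221, -0.21 and 0.79 in TC243 and -0.82 and 1.01 in cytT248. No small heat shock protein was called higher or lower than in both other cytolines under all scalings.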

How the data were processed

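Total RNA of 24 samples was labelled with Cy3 and hybridised to 1-colour Agilent 4x180k custom maize arrays, 4 per slide. The deposited scanner files, written by Agilent Feature Extraction (version 11 per the labels), hold spot and background intensity values before any normalization between arrays. The authors also deposited a value table on a log2 scale, whose normalization steps are not given in the sources used here. Its rows were matched to the spots by number, each column correlated best with its own array (Spearman 0.987 to 0.995), and it served as an alternative. Its column medians were about 6.51.

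Median signals were background-corrected with normexp (offset 50), outlier spots were left out, and log2 values were set relative to each array's percentile 75, taken over the 46955 spots that the scanner called bright on every one of the 24 arrays. Of 133671 probes, 64523 were kept, namely those the scanner called bright (well above background) throughout 1 or more of the 6 groups, and averaged per gene ID, which gave 48264 of 107027 gene IDs. No kept probe was saturated on the arrays of cytTC221. limma 3.58.1 (R 4.3.3) was fitted across all genes and all 24 arrays without covariates, and p-values were adjusted by the Benjamini-Hochberg method, with 0.01 as the threshold. The fit was tested on simulated data with 200 changed genes, independent noise and no scaling differences between arrays. That test therefore says nothing about the dependence on scaling. With 4 arrays a group, the number of arrays limits the precision. Lower bounds set the mean of the bright group against the mean, over the dim group's arrays, of the gene's signal or, where higher, the dimmest signal called bright on that array. Where the gene's own signal is the higher on all of these arrays, the bound is the plain ratio. A signal above that dimmest one need not be called bright, so a bound is not a guaranteed minimum.

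Gene IDs are those of the array design (GRMZM). Of these, 18818 had a RefSeq entry, which gave the names. For only 2624 IDs did it hold an informative name rather than a clone or locus code. The rankings of named genes drew on these 2624 IDs alone. The names of 10 mitochondrion-encoded genes came from the study's supplementary annotation. Members and lists were chosen with earlier results of these data known. The genes named are the 10 largest measured increases and decreases among named genes with all probes of one sign and bright on all 8 cytTC221 arrays, the 5 largest lower bounds each way, up to 4 members of each list with the largest change and those against its majority, and the 6 largest differences from both other cytolines each way. Proteasome, aminoacyl-tRNA synthetase and Sm or LSm genes were not found by name and were not analysed here, nor were promoter sequences. Alternatives changed the scaling, signal, filter, probe choice, samples, slide block and replicate block. The counts shared by all scalings were added after the data were examined. Replicate numbers come from the titles, since the source names of control arrays 3 and 4 of cytTC221 repeat the number 2. Each of the 6 slides had 1 scan. A gene among those with an outlying array is not reported here.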

Additional observations from a re-analysis of the deposited data

Results flagged for a closer look

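In a search over 486 groups of 4 cytTC221 arrays, for the named genes, 22 had 1 array that lay further from the rest than the usual limit for an outlying value, and chance alone gives about 1 in 20. The share of the group's log2 range taken by the gap was high for vdac1b in control (0.976), tif-4A3 in control (0.906) and his1 in control (0.900). For vdac1b control array 3 read 2944 and the others 3148 to 3153. Further control groups with such a gap were sps1 (0.897), emp2 (0.889), Hsf05 (GRMZM2G133023, 0.885), CesA-9 (GRMZM2G018241, 0.882), nrx1 (0.871), SGR1 (GRMZM2G103881, 0.871), NR1 (0.870), lhcb7 (0.856), CPK39 (0.847), mt-mat-r (0.845), expB4 (0.834), cesa10 (0.830) and TIP2-1 (0.830). In heat they were hsp82 (0.879), vip3 (0.876), rpp2a-3 (0.875), bZIP96 (0.853) and hon102 (0.841).

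The response of 12 named genes differed in cytTC221 from both other cytolines by the test of the difference itself. The log2 difference from TC243 and from cytT248 was 2.49 and 2.23 in GNAT21, 1.36 and 1.33 in pho1, 1.24 and 1.64 in Hm2, 1.16 and 1.51 in INO1, 1.33 and 1.16 in vip3 and 2.54 and 1.14 in PPCK4. It was -2.20 and -1.88 in mir2, -1.68 and -2.05 in TIP3-1, -1.59 and -2.43 in ICL, -1.44 and -1.38 in CPK39, -1.33 and -1.63 in psiP and -2.42 and -1.21 in HRGP. Each of these was called in the same direction under the 5 other scalings and signals.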

How the results depend on the processing

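The up-regulated genes numbered 19579 in the main setting and 11326 with only probes well above background on all 24 arrays, which leaves 27876 genes to test, and the count of down-regulated genes went from 15587 to 10533. Under the other settings run for cytTC221 both counts stayed within 1.5 times. Leaving out 1 cytTC221 array gave 18417 to 20036 and 14731 to 15776 genes, with 1883 to 2109 higher and 6665 to 8086 lower responses. Higher responses than in both other cytolines, 2121 genes, became 4898 with quantile normalization, 5632 with the 75th percentile over all spots, 7023 with centring on the median gene, 3291 with the processed signal, 4856 with the deposited table and 1389 without a filter on dim probes. Lower responses, 7635 genes, became 5027 with the 75th percentile over all spots, 4253 with centring, 3561 with bright probes only and 3838 where all 5 other scalings had to call them, a count added after the data were examined. The cause was not tested. The replicate numbers did not pair the arrays (correlations of deviations -0.12 to 0.01), and with the replicate number as a block 19316 genes were up, 15456 down, 2044 higher and 7315 lower. The slide as a block gave 18909 and 15135.

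With no filter on dim probes the log2 change reversed to 0.095 in emp2 and 0.052 in rpl10 (GRMZM2G467086). With bright probes only it reversed to -0.028 in srp31, -0.80 in RSZ21 and -0.66 in pcna2, and the list medians to -0.19 in flavonoid genes and 3.25 in expansins. With the brightest probe of a gene it reversed to -0.028 in srp31, -0.78 in RSZ21, -0.94 in SCL25A, -1.70 in PIP2-1, -1.09 in Hist1h3b, -0.15 in Atg8d and -0.56 in gln2, and the median log2 change of the list translation factors to -0.067. With the processed signal WRKY109 (GRMZM2G023347) gave -0.37 and cesa10 -0.29. Of the other gene and list values under an alternative, 4900 kept direction and call or, for a list median, stayed within the spread between replicates, 147 lost the call and 77 list medians moved by more than that spread. Some list medians close to 0 turned sign. The median log2 change of the list cell cycle and DNA replication, 0.063, was -0.66 with bright probes only and -0.080 to -0.010 under the other scalings and signals. The median log2 change of the list autophagy, 0.034, was -0.15 with the brightest probe, below 0 with every other scaling but the processed signal, and -0.0097 without heat array 2. The median log2 change of the list C4 cycle, -0.014, was 0.0080, 0.013 and 0.022 without control array 2, control array 3 and heat array 4. The median log2 change of the list carotenoid synthesis and cleavage, -0.030, was 0.0049 without control array 3 and 0.0038 without heat array 3. With bright probes only, fewer members of most lists were tested, and 7 of 8 large chaperones and 1 of 1 small heat shock proteins rose.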

Other observations

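Some genes were called in opposite directions in 2 cytolines. Of the 35166 genes called in cytTC221, 1159 were called in the opposite direction in TC243 and 1245 in cytT248. These counts are from the main scaling, in which the median gene moved by 0.12 in cytTC221, 0.27 in TC243 and 0.48 in cytT248. They were not taken under the other scalings. ICL and HRGP, which fell in cytTC221, rose in both others, and PPCK4, which rose in cytTC221, fell in TC243.

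Of the root markers, zrp4 had a log2 change of -1.39 in cytTC221 and rth3 was not called. A zein gene, z1C1_2, was measured above background in these seedlings, while the embryo gene glb1 was not above background on any cytTC221 array.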
